A study of Mus musculus with 6 samples.

Results

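ExNeuron3 is 1 of 6 classes of excitatory neurons that the authors annotated in droplet sequencing of nuclei from mouse brain that had been fixed in formalin and embedded in paraffin (FFPE). It was described here because genes known from granule neurons were higher in it than in the other ExNeuron classes. Its members are the nuclei that carry this name in the authors' annotation: 1105 of 7031 droplet nuclei, or 15.7%. The other 5 ExNeuron classes held 4475 nuclei and the 6 non-neuronal classes held 1451.

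Granule neurons of the cerebellum are the most numerous neurons of the brain. They receive glutamatergic mossy fibre input, are inhibited by Golgi cells through synaptic and extrasynaptic GABA-A receptors, and send parallel fibres to Purkinje neurons. Gabra6 encodes the GABA-A receptor subunit that is largely restricted to them in the adult brain. Granule neurons of the dentate gyrus and of the olfactory bulb share the name but are other cell types, with other transcription factors.

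All mice were C57BL/6J animals of 8 to 12 weeks, and the labels call the tissue cortex. Nuclei came from 50 µm scrolls of FFPE brain whose paraffin was removed by mineral oil under heat, by xylene under heat or by unheated xylene (room temperature); the labels do not say which was used for the droplet nuclei. Bulk wells of 10 to 100 nuclei (48 FFPE and 16 frozen wells in SCRB-seq, 9 and 3 in SMART-Seq2) and single SMART-Seq2 nuclei (98 in FFPE batch 1, 134 in FFPE batch 2 and 137 frozen) served as data that the annotation had not used. The frozen wells and nuclei are named in the authors' annotation tables only, where no strain, age or brain region is given for the frozen tissue. No label gives the animal behind a well or nucleus, so p-values over wells measure the spread between wells, which may be technical.

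ExNeuron3 nuclei had 389751 unique molecular identifiers (UMIs, counted transcripts) in all, with a median of 321 per nucleus (quartiles 284 to 390). The median was 326 in the other ExNeuron classes and 326 in the non-neuronal classes. Mitochondrial UMIs had medians of 3.41%, 3.37% and 3.68%, in the same order. No cell barcode occurred more than once. All droplet nuclei are 1 sample and the classes were clustered on these same genes, so comparisons between droplet classes are descriptions without a test. Their 95% intervals cover counting error only. Levels are CPM, the UMIs of a gene scaled to the same total in every class.

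Before the values, the upstream sequences of 3 of its genes are shown: Gabra6, the marker of granule neurons; Fat2, a protocadherin of parallel fibres; and Kcnk10, a leak potassium channel. Each is the 250 bases before a RefSeq start on GRCm38.p6, on the gene's strand, 5′ to 3′. Capitals mark TTGGC or its reverse complement GCCAA, the half-site bound by nuclear factor I (NFI) proteins, which act in granule neuron maturation. The windows are chr11:42321073-42321322 (minus strand), chr11:55312258-55312507 (minus strand) and chr12:98575128-98575377 (minus strand), and none overlaps a GENCODE M21 exon.
Gabra6: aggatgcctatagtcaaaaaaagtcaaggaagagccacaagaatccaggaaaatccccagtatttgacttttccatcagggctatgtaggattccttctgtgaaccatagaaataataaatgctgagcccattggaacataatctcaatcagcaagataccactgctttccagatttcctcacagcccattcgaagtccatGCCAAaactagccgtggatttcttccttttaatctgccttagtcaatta
Fat2: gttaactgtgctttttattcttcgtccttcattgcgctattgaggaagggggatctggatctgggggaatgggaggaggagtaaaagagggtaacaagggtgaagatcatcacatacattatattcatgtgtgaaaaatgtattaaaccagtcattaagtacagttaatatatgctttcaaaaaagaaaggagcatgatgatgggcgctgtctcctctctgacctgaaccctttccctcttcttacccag
Kcnk10: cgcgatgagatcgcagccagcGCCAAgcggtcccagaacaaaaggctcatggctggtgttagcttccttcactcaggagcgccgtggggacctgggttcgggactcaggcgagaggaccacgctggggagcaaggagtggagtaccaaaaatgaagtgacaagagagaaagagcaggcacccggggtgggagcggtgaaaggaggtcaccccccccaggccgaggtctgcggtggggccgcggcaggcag

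The Gabra6 and Kcnk10 windows each held 1 half-site and the Fat2 window held 0. A second RefSeq window of Kcnk10, chr12:98578214-98578463 (minus strand), held 0 half-sites, overlapped annotated exons and is not shown. Of 35 class genes looked up (the markers, the leading genes and the granule list described below), 25 had RefSeq windows, 35 windows in all. TTGGC on either strand was in 18 of these 35 (51.4%), against 41.5% of 32851 windows of the same length. The E-box CAGCTG was in 14.3% against 13%, and the E-box CATATG in 2.86% against 3.46%. These matches are descriptions of letters and not of binding.

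The 4 genes that mark the class were all higher in ExNeuron3 than in each of the other 11 classes, but by modest amounts. They were chosen as its markers, so their levels only describe it. Gabra6 (chr11:42306437-42321072) stood at 364 CPM in ExNeuron3 (142 UMIs, 95% 307 to 429), 192 in the other ExNeuron classes pooled and 162 in the non-neuronal classes pooled. Chn2 (chr6:54039554-54301810), which encodes beta-chimaerin, a GTPase-activating protein for Rac, stood at 1429, 744 and 640 CPM. Cadps2 (chr6:23262773-23839421), a priming factor for dense-core vesicle release, stood at 990, 598 and 396 CPM. Etv1 (chr12:38779380-38870484), an ETS transcription factor that drives late granule neuron genes, stood at 590, 258 and 259 CPM. Coordinates are whole genes in GENCODE M21 on GRCm38.

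The ratio of ExNeuron3 to the other ExNeuron classes was 1.90 for Gabra6 (95% 1.55 to 2.32), 1.92 for Chn2 (1.73 to 2.12), 1.66 for Cadps2 (1.47 to 1.87) and 2.29 for Etv1 (1.94 to 2.69). ExNeuron2 was the next class for each of them. Against ExNeuron2 alone the ratios were 1.21 (0.93 to 1.58), 1.30 (1.14 to 1.49), 1.28 (1.09 to 1.5) and 1.59 (1.28 to 1.99). The interval for Gabra6 thus included 1, and the depth did not separate the 2 classes on it. Against ExNeuron1, 4, 5 and 6 pooled, the ratios were 2.23, 2.19, 1.79 and 2.58.

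**Figure D1:**
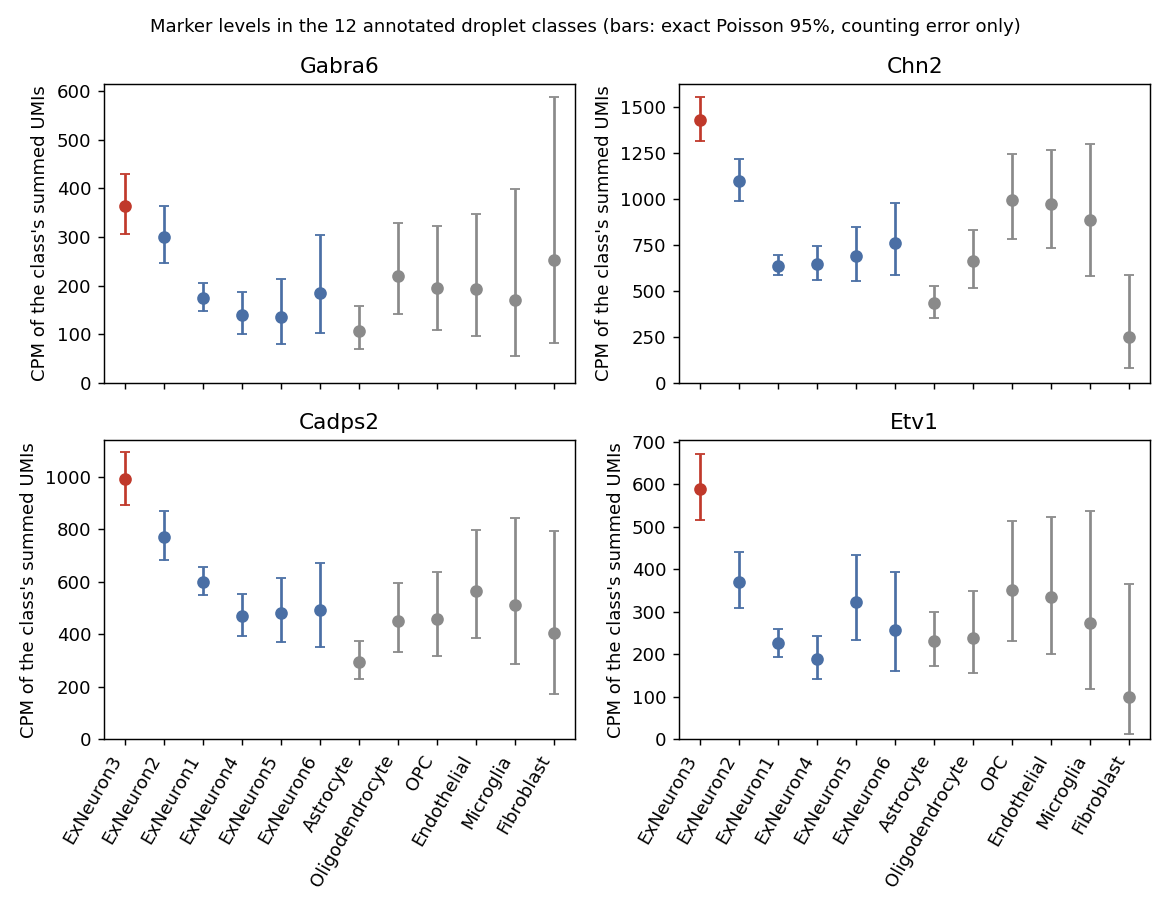
CPM of Gabra6, Chn2, Cadps2 and Etv1 in each of the 12 annotated droplet classes; points are class sums, bars exact Poisson 95% intervals of counting error, with ExNeuron3 in red, other ExNeuron classes in blue and non-neuronal classes in grey. ExNeuron3 is highest in each panel, ExNeuron2 stands second for Gabra6 (301 CPM) and Etv1 (370 CPM), and no class is at 0.

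Few nuclei carried a UMI of any single marker. Gabra6 had a UMI in 132 of 1105 ExNeuron3 nuclei (11.9%, exact binomial 95% 10.1 to 14.0). The share was 9.20% in ExNeuron2 and 5.65% (4.52 to 6.97) in non-neuronal nuclei, which should lack the gene and here mark the background. ExNeuron1 (6.55%), ExNeuron4 (5.87%) and ExNeuron5 (5.14%) lay within the interval of that background. ExNeuron6, at 15 of 209 nuclei (7.18%, 4.07 to 11.6), lay just above it, with an interval that included the background share. Among the small classes, Fibroblast had 5 of 47 nuclei (10.6%) with Gabra6. With each nucleus thinned to 250 UMIs, which left out 19 ExNeuron3 and 44 non-neuronal nuclei, the shares were 8.56% (6.97 to 10.4) in ExNeuron3, 7.57% in ExNeuron2 and 3.98% (3.02 to 5.14) in non-neuronal nuclei. Chn2 had a UMI in 35.6% of ExNeuron3 nuclei and 19.0% of non-neuronal ones. For Cadps2 these shares were 28.9% and 12.1%, and for Etv1 they were 18.9% and 8.68%.

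At least 1 of the 4 markers had a UMI in 693 ExNeuron3 nuclei (62.7%), against 51.2% in ExNeuron2, 44.8% over the other ExNeuron classes and 36.7% in non-neuronal nuclei. Thinned, the same shares were 53.1%, 44.9%, 35.7% and 29.3%. All 4 markers were seen together in 7 ExNeuron3 nuclei, 3 nuclei of ExNeuron2 and 1 non-neuronal nucleus, an oligodendrocyte precursor (OPC). Of the ExNeuron3 nuclei with Gabra6, 39.4% also had Cadps2, against 27.4% of those without. Nuclei with Gabra6 were somewhat deeper (median 336 against 319 UMIs), and the part of depth in this was not tested. Across 3 bins of ExNeuron3 nuclei from shallow to deep, Gabra6 stood at 348, 436 and 324 CPM, with its highest level in the middle bin.

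**Figure D2:**
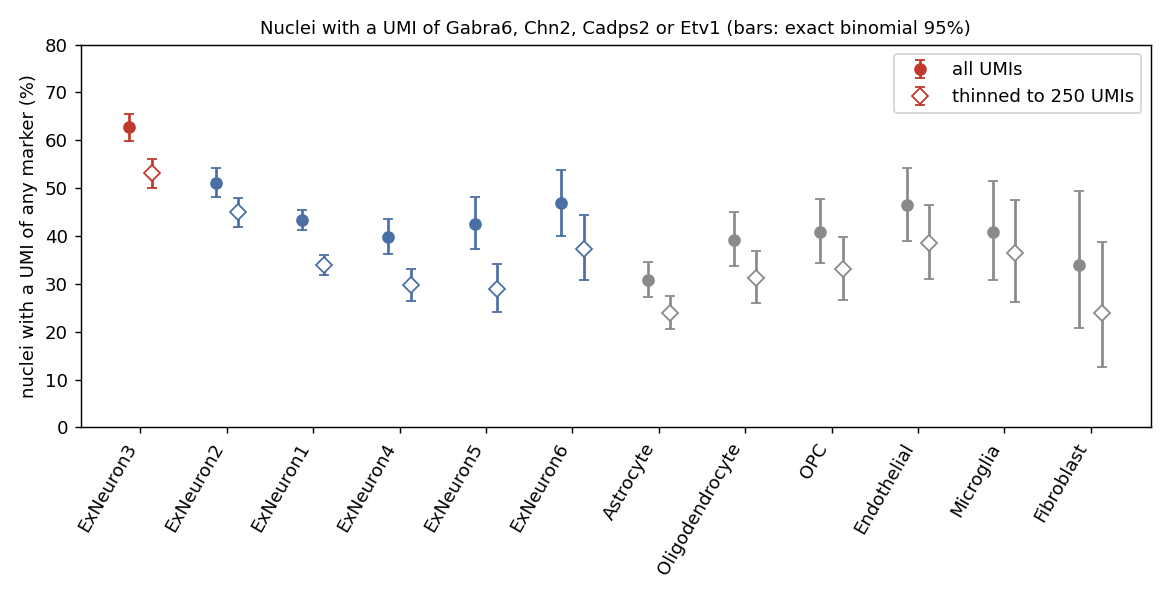
Percent of nuclei in each droplet class with a UMI of Gabra6, Chn2, Cadps2 or Etv1; filled circles use all UMIs, open diamonds nuclei thinned to 250 UMIs, and bars are exact binomial 95% intervals. ExNeuron3 stands at 62.7% and 53.1%, with ExNeuron2 next at 51.2% and 44.9%, and Astrocyte is lowest at 30.8% of nuclei with all UMIs.

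A list of 20 genes known from cerebellar granule neurons had 19 members with a row in the droplet table. All 19 had a higher CPM in ExNeuron3 than in the other ExNeuron classes, with a median ratio of 1.90, beside 0.97 over all 9870 genes compared. These genes helped to form the clusters, so this is no independent support for the name. A call needed a ratio of at least 2 and at least 20 UMIs over both arms. By that rule 2.47% of all genes were higher in ExNeuron3 and 6 of the 19 list members were: Tmem266 (3.09), Fat2 (2.66), Grm4 (2.33), Etv1 (2.29), Reln (2.23) and Pax6 (2.12). With each nucleus thinned to 250 UMIs, Etv1 (1.91), Grm4 (1.99) and Pax6 (1.90) fell short of 2 and Gabrd (2.06) reached it, which left 4 members. The count was also 4 without ExNeuron1 in the comparison, and 12 without ExNeuron2. Grin2c, at 2.00 before rounding just under the limit, Zic1 (1.99) and Chn2 (1.92) lay next outside it. Cbln1 and Cbln3, which encode secreted synapse organisers that bind the delta glutamate receptor of Purkinje neurons, had ratios of only 1.49 and 1.44.

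In 13 of the 19 the highest of all 12 classes was ExNeuron3. The exceptions were Cbln1 and Gabrd (highest in Microglia), Cbln3 (ExNeuron5), Zic2 (Fibroblast), Zic4 (Astrocyte) and Calb2 (Microglia). Zic2 and Zic4 rested on 12 and 10 UMIs in ExNeuron3, and Microglia and Fibroblast are the smallest classes (93 and 47 nuclei). The list made up 1.74% of ExNeuron3's UMIs, 1.31% of those of ExNeuron2, 0.863% in ExNeuron1, 0.796% in ExNeuron4 and 0.535% to 0.899% in the non-neuronal classes. In 65.7% of ExNeuron3 nuclei the list had more UMIs than a list of 16 cortical excitatory genes, against 46.4% in ExNeuron2 and 31.6% in ExNeuron1. In 140 ExNeuron3 nuclei (12.7%) none of the 19 genes had a UMI.

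Markers of other granule neurons were also measured. Of the dentate list, Prox1, a homeobox factor, had a ratio of 2.62 to the other ExNeuron classes (38 UMIs) and Maml2, a Notch coactivator, one of 3.44 (46 UMIs). Their highest levels, however, were in Microglia and Endothelial. Dsp, which encodes desmoplakin, was at 0 UMIs in ExNeuron3, and C1ql2 had 1. Of the 9 members with enough UMIs, 5 were above 1, 2 were called higher (2.47% of all genes) and 1, Trpc6, lower (7.67% of all genes), with a median of 1.40 beside 0.97 over all genes. The olfactory granule list, which includes Meis2 and the GABA-synthesis genes Gad1 and Gad2, had a median of 0.54, with 1 of 9 above 1 and 4 at or under 0.5.

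Cortical excitatory markers were mostly below the other ExNeuron classes. Their 16 genes had a median ratio of 0.70; 2 were above 1 and 3 were called lower, where 7.67% of all genes were. Hs3st4, a deep-layer marker, was at 0.35 and Slc17a7, the vesicular glutamate transporter VGLUT1, at 0.74. Granule neurons and cortical neurons both use VGLUT1, and ExNeuron3 held 439 CPM of it against 591 in the other ExNeuron classes. Purkinje markers had a median ratio of 0.85 (1 of 9 called lower). Inhibitory neuron markers had a median ratio of 0.65 (4 of 11 called lower), but the comparison classes differed widely on them. Their summed level was 836 CPM in ExNeuron3, close to ExNeuron1 (889) and ExNeuron5 (727), 1154 in ExNeuron2, and far higher in ExNeuron4 (3617) and ExNeuron6 (2412). These last 2 classes, although annotated as excitatory, thus had the highest levels of the inhibitory markers among all 12.

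Over all genes, 244 of 9870 were at least 2-fold higher in ExNeuron3 than in the other ExNeuron classes and 757 (7.67%) at least 2-fold lower. The lower calls rested on few counts: 607 of them had under 10 UMIs in ExNeuron3. The 15 genes with the largest ratios among those with at least 50 UMIs and 200 CPM in the class ran from Ror1 (3.16, 95% 2.51 to 3.98), a receptor tyrosine kinase-like Wnt5a receptor, to Alms1 (2.37), a centrosomal protein gene. Between them stood Tmem266, which encodes a voltage-sensor protein of granule neurons, Dpf3 and Chd7 (2.91 and 2.38), both chromatin regulators, and Zfp521 (2.44), a zinc finger factor. Il16 (2.82) is a cytokine gene whose neuronal product is a scaffold of ion channels. Megf11 (2.47) is an adhesion gene, Kif26b (2.39) encodes an atypical kinesin and Tiam1 (2.39) encodes a Rac activator. Airn (2.57) is the noncoding RNA antisense to Igf2r. Thinned, 12 of the 15 kept a ratio of at least 2, and Tiam1 (1.90), Chd7 (1.91) and Alms1 (1.97) did not. The other members were 6530403H02Rik (2.73), Kcnk10 (2.70), Fat2 and Gm2694 (2.57). Each had a UMI in only 6.52% to 16% of ExNeuron3 nuclei. Of the 15, 12 were highest in ExNeuron3 among all classes; Chd7 was highest in OPC, and Zfp521 and Airn in Fibroblast.

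Measured against the highest of all other classes, Grm4 came first at 1.90 times ExNeuron2. Kcnk10 followed at 1.88 times ExNeuron6 and Tmem266 at 1.81 times Endothelial. Dgkg, a diacylglycerol kinase gene, was at 1.75, as was Ndst3, which modifies heparan sulfate. Pip5k1b, which makes the lipid PIP2, was at 1.57 times ExNeuron4. No gene among the 845 with at least 50 UMIs and 200 CPM in ExNeuron3 was thus 2-fold above every other class.

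Among genes with at least 200 CPM in the other ExNeuron classes, the 10 with the lowest ratios were each highest in another class. Tmem132d had a ratio of 0.23 (59.0 CPM against 258) and was highest in ExNeuron1. Grip1, a scaffold of AMPA receptors, had 0.24, and Adarb2, an RNA-editing family member of interneurons, 0.30; both were highest in ExNeuron4. Meis2, a homeobox factor, and Tenm3, a teneurin, were both at 0.30 and highest in ExNeuron6. Cntn3 (0.29) and Khdrbs2 (0.31) were highest in ExNeuron5, Zfp804b (0.32) and Thrb, a thyroid hormone receptor (0.34), in ExNeuron4, and Pcdh15 (0.34) in OPC. Without ExNeuron1 the Tmem132d ratio was 0.44, and without ExNeuron4 those of Grip1 and Adarb2 were 0.50 and 0.54.

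**Figure D3:**
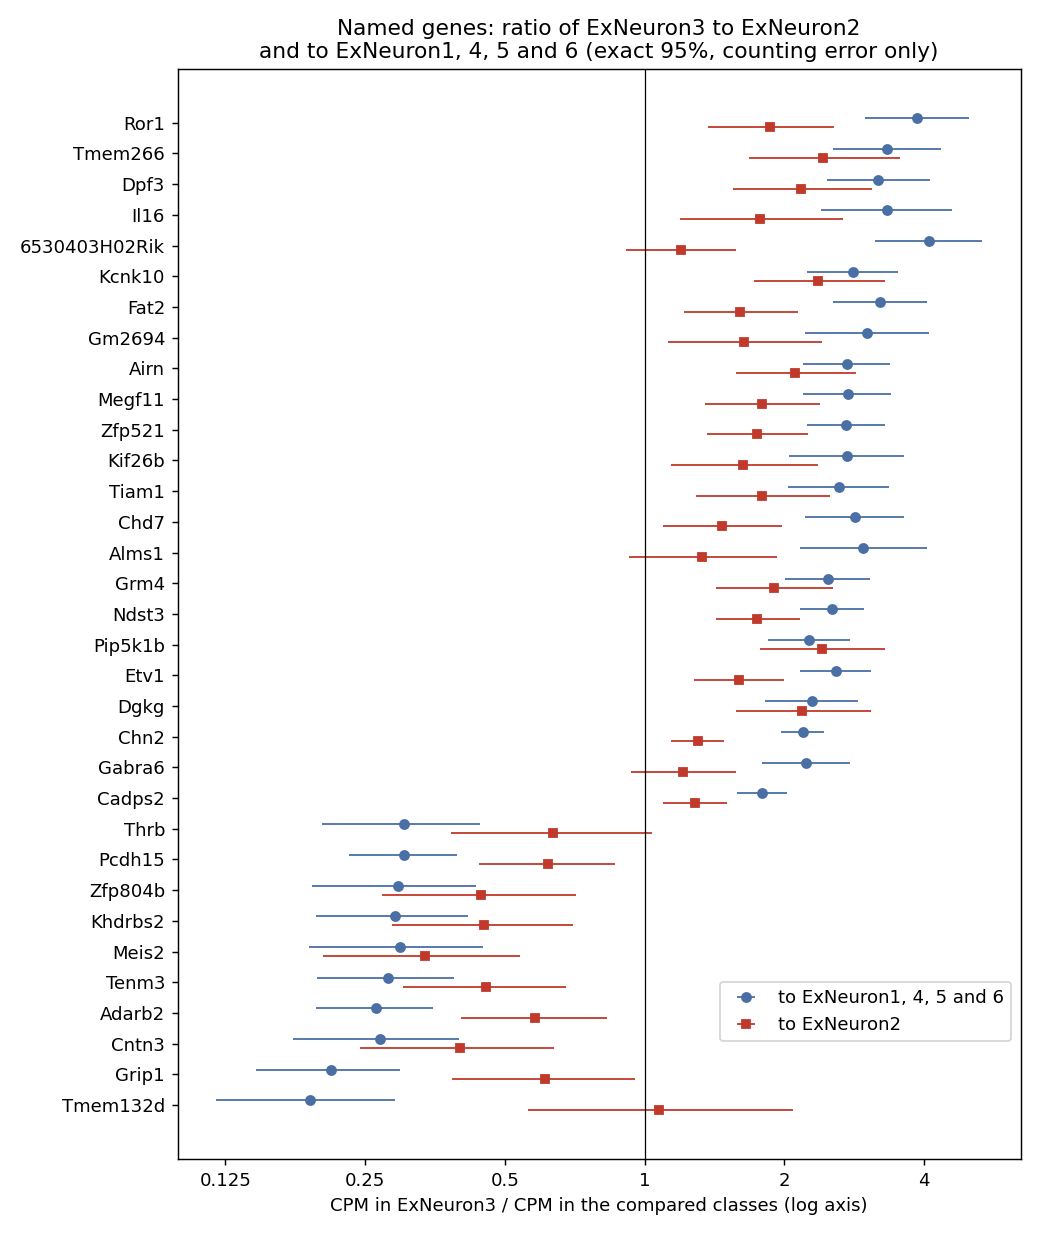
CPM ratio of ExNeuron3 to ExNeuron2 (red squares) and to ExNeuron1, 4, 5 and 6 pooled (blue circles) for the markers, the leading higher genes and the 10 lowest genes, on a log axis with exact 95% intervals of counting error. All 15 leading genes lie above 1 against ExNeuron2 but only 4 at 2 or more, while all 15 are at 2 or more against the other 4 classes; Tmem132d is at 1.07 against ExNeuron2 and 0.19 against the others.

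ExNeuron2 was the class most like ExNeuron3. Over 898 genes with at least 500 UMIs in all, the log profiles correlated with Pearson r = 0.95 and Spearman rho = 0.91 for ExNeuron2, and with r = 0.87 and rho = 0.78 for the next class, ExNeuron1; these run across genes of 1 shared library, and genes are not independent replicates. The granule list had a median ratio of 1.30 against ExNeuron2 and 2.21 against ExNeuron1, 4, 5 and 6. In 18 of 19 members ExNeuron3 was above ExNeuron2. Among the 15 nearest neighbours of an ExNeuron3 nucleus in a space of 30 principal components, 26.5% were ExNeuron3, 25% ExNeuron1 and 19.5% ExNeuron2. These classes held 15.7%, 30.2% and 15.6% of all nuclei, so ExNeuron3 and ExNeuron2 were over and ExNeuron1 under its share. Around the other classes the ExNeuron2 share ran from 13.7% (Astrocyte) to 19.4% (Endothelial), apart from ExNeuron2 itself (21.6%). A share of this size was thus not particular to ExNeuron3. In none of the 12 classes did the own class make up most neighbours (1.6% in Microglia to 36.7% in ExNeuron1).

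Among receptor genes, subunits for GABA stood on both sides. Beside Gabra6, Gabrd (1.81), whose product pairs with it outside synapses, and Gabrb2 (1.43) were higher in ExNeuron3. ExNeuron2 held nearly the same level of Gabrd, with 55 of 345696 UMIs against 66 of 389751 in ExNeuron3. Gabrg3 (0.37), Gabra2 (0.50), Gabrb1 (0.63) and Gabra4 (0.64) were lower. Over 13 subunits the median was 0.74, beside 0.97 over all genes, with 2 called lower and 0 called higher, where 7.67% and 2.47% of all genes were. Of NMDA receptor genes, Grin2c, the subunit of mature granule neurons, stood at 182 CPM against 91.1, Grin2b at 326 against 609 (0.54) and Grin2a at 1.03 times. Grin2c had 71 UMIs in ExNeuron3 and 53 in ExNeuron2, which was closer to ExNeuron3 than the pooled classes were.

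Among the metabotropic glutamate receptors, Grm4, a presynaptic receptor of parallel fibres, stood at 400 CPM against 172. Lower members were Grm7 (0.40), Grm8 (0.39), Grm3 (0.45), Grm2 (0.48) and Grm5 (0.58). Of the 7, 4 were called lower, where 7.67% of all genes were. Of the kainate receptor genes, Grik2 was higher (1.57, 960 UMIs) and Grik1 lower, with 2 UMIs in ExNeuron3 (5.13 CPM against 67.4). The AMPA receptor genes Gria1 (0.63) and Gria3 (0.61) were lower and Gria4 (1.21) higher.

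Transcription factors of granule neurons were led by Meis1 (2.29), Etv1, En2 (2.17), an engrailed factor of the midbrain and cerebellum with only 25 UMIs, Pax6 and Zic1. ExNeuron6 held nearly the same level of Meis1, with 28 of 81259 UMIs against 136 of 389751 in ExNeuron3. Nfia (1.74), Nfic (1.57) and Nfib (1.31), which encode NFI proteins, were above the other ExNeuron classes, and Nfix was at 1.08. Nfia was still lower than in Astrocyte (0.72), and Nfic lower than in Endothelial, which held only 14 UMIs of it. Of 20 factors with enough UMIs, 14 were above 1 and 4 called higher (2.47% of all genes), with Meis2 the 1 called lower (7.67% of all genes). Mef2c, a cortical activity factor, was at 0.57.

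In the release machinery, Unc13c, the Munc13 isoform of granule neurons, stood at 942 CPM against 460 (2.05), and Rims1 (1.38) and Rims2 (1.28) were above 1. Cadps, the paralog of Cadps2, was lower (0.71). Among the 15 members, 1 was called higher and 1, Syt10, lower, where 2.47% and 7.67% of all genes were. Of the Rac regulators, Chn1, the paralog of Chn2, was at 0.80, Tiam1 at 2.39 and Dock4 at 1.49.

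Genes of the A-type potassium channel were abundant in the class and, against ExNeuron2, only modestly higher. Kcnd2, its Kv4.2 pore, reached 9996 CPM in ExNeuron3, against 5563 in the other ExNeuron classes and 3626 in non-neuronal nuclei, and had a UMI in 88.3% of ExNeuron3 nuclei. The share was 79.96% in ExNeuron2 and 56.4% in non-neuronal nuclei, or 83.1%, 75.9% and 47.6% after thinning, so a UMI of it does not mark the class. Its partners Kcnip4 (15579 CPM, ratio 1.54) and Dpp6 (2658 CPM, 1.65), which are not among the 35 class genes, were likewise higher, while Dpp10 (0.78), Kcnip1 (0.37) and Kcnd3 (1.03) were not. ExNeuron4 held 109 UMIs of Kcnip1 and ExNeuron6 25, against 31 in ExNeuron1, 17 in ExNeuron2 and 16 in ExNeuron3. ExNeuron2 held 7692 CPM of Kcnd2, 12042 of Kcnip4 and 2158 of Dpp6, so that the ratios to it were 1.30 (95% 1.24 to 1.37), 1.29 (1.24 to 1.35) and 1.23 (1.12 to 1.36). Some other potassium channel genes were lower, including Kcnq5 (0.44), Kcnh7 (0.42) and Kcnma1 (0.44). Of 25 measured members, 14 were above 1, 1 was called higher and 6 lower, where 2.47% and 7.67% of all genes were, and the median was 1.03. Unlike Gabra6, Kcnd2 and Kcnip4 had a higher CPM in deeper nuclei (Kcnd2 at 8504, 9832 and 10995 CPM over the same 3 bins). The gene with most UMIs, Gm42418, which overlaps ribosomal RNA sequence, had 27192 CPM in ExNeuron3 and 27882 in the other ExNeuron classes. Dlgap1 (2463 UMIs, ratio 1.02), a postsynaptic scaffold gene, and Fgf14 (2454 UMIs, 1.53), a partner of sodium channels, were the next most abundant after Kcnd2.

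Against the non-neuronal classes, 312 of 7535 genes (4.14%) were at least 2-fold higher in ExNeuron3 and 751 (9.97%) at least 2-fold lower. With TMM scaling of the class sums these numbers were 573 and 541, so their balance depended on the scaling. Where ExNeuron3 or the non-neuronal classes reached 200 CPM, the largest ratios were those of 6530403H02Rik (4.66), Fat2 (4.34), Tll1 (4.0), a metalloprotease gene, Tmem266 (3.97) and Epha3 (3.92), an ephrin receptor gene. The lowest in the same set were genes of glial and vascular cells: Prr5l (0.04, highest in Oligodendrocyte), Nckap5 (0.05, OPC), St3gal4 (0.06) and Lama2 (0.08, both Fibroblast), and Mertk (0.10, Astrocyte). The astrocyte list had a median of 0.39 and the oligodendrocyte list 0.33, beside 0.95 over all genes compared.

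Glial transcripts were nonetheless present in ExNeuron3. The myelin gene Mbp (829 CPM against 725) had a ratio of 1.14 and reached 0.39 of its level in Oligodendrocyte. Over 10 oligodendrocyte markers the median ratio to the other ExNeuron classes was 1.09, over 10 astrocyte markers 1.12 and over 6 microglial markers 1.05. The OPC markers were lower, with a median of 0.57, 1 of 6 above 1 and a summed level of 431 CPM against 694. St18 (2.20) and Opalin (2.17, 12 UMIs) were the oligodendrocyte markers called higher and Prr5l (0.45, 3 UMIs) the one called lower, where 2.47% and 7.67% of all genes were. The part of these transcripts in the class profile was not tested.

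The bulk wells gave values that the annotation had not used. In them, fewer cells of a type and less RNA per cell cannot be told apart. Gabra6 was found in 47 of 48 FFPE wells of SCRB-seq, at 0 CPM in the lowest, 264 in the median and 841 in the highest well, and in 0 of 16 frozen wells. It was in all 9 FFPE wells of SMART-Seq2 and in 0 of 3 frozen ones. The FFPE wells held 400.5, 277 and 43.5 CPM after heated xylene (100, 50 and 10 nuclei), 245, 206 and 439 after room-temperature xylene, and 345, 166 and 1026 after mineral oil. The groups did not overlap in SMART-Seq2, and in SCRB-seq only the 1 FFPE well without a count reached the frozen level.

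Pooled over wells, Gabra6 was at least 108-fold higher in FFPE than in frozen wells of SCRB-seq and at least 177-fold higher in SMART-Seq2, against a floor of 3 counts over all frozen wells. The mean was above 0 with each method and each number of nuclei: in SCRB-seq wells of 100 nuclei it was 522 ± 130 CPM after mineral oil, 317 ± 123 after heated xylene and 235 ± 103 after room-temperature xylene (SD, n = 8 wells each).

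The other markers had counts in both groups and entered the quasi-likelihood test of edgeR, adjusted by Benjamini-Hochberg over all genes tested. Chn2 was at 760 ± 580 CPM in FFPE wells (SD, n = 48) and 38.7 ± 39.3 in frozen wells (n = 16) of SCRB-seq, a log2 difference of 4.01 (SE 0.46). In SMART-Seq2 it was at 2129 ± 815 (n = 9) and 78.6 ± 4.1 (n = 3), with a log2 difference of 4.47 (SE 0.43, edgeR adjusted p 5.08e-07) and no overlap between groups. In SCRB-seq no frozen well reached the limit of edgeR's filter on low counts for Chn2 or Etv1, so both passed it through FFPE wells only and no p-value is given there. Etv1 had a log2 difference of 2.77 in SCRB-seq and rose by 2.30 in SMART-Seq2 (edgeR adjusted p 0.0237), where it missed the threshold without the frozen well of 100 or of 50 nuclei, with an adjusted p of up to 0.147. Cadps2 had a log2 difference of 0.83 in SCRB-seq (edgeR adjusted p 0.0134) and did not pass the threshold in SMART-Seq2 (1.12, SE 0.39, edgeR adjusted p 0.127). In SCRB-seq 11 of 16 frozen wells reached the filter's limit for Cadps2, too few to pass it without FFPE wells. With DESeq2's size factors the SCRB-seq difference of Cadps2 was lost, and over the alternatives its adjusted p reached 0.436.

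**Figure D4:**
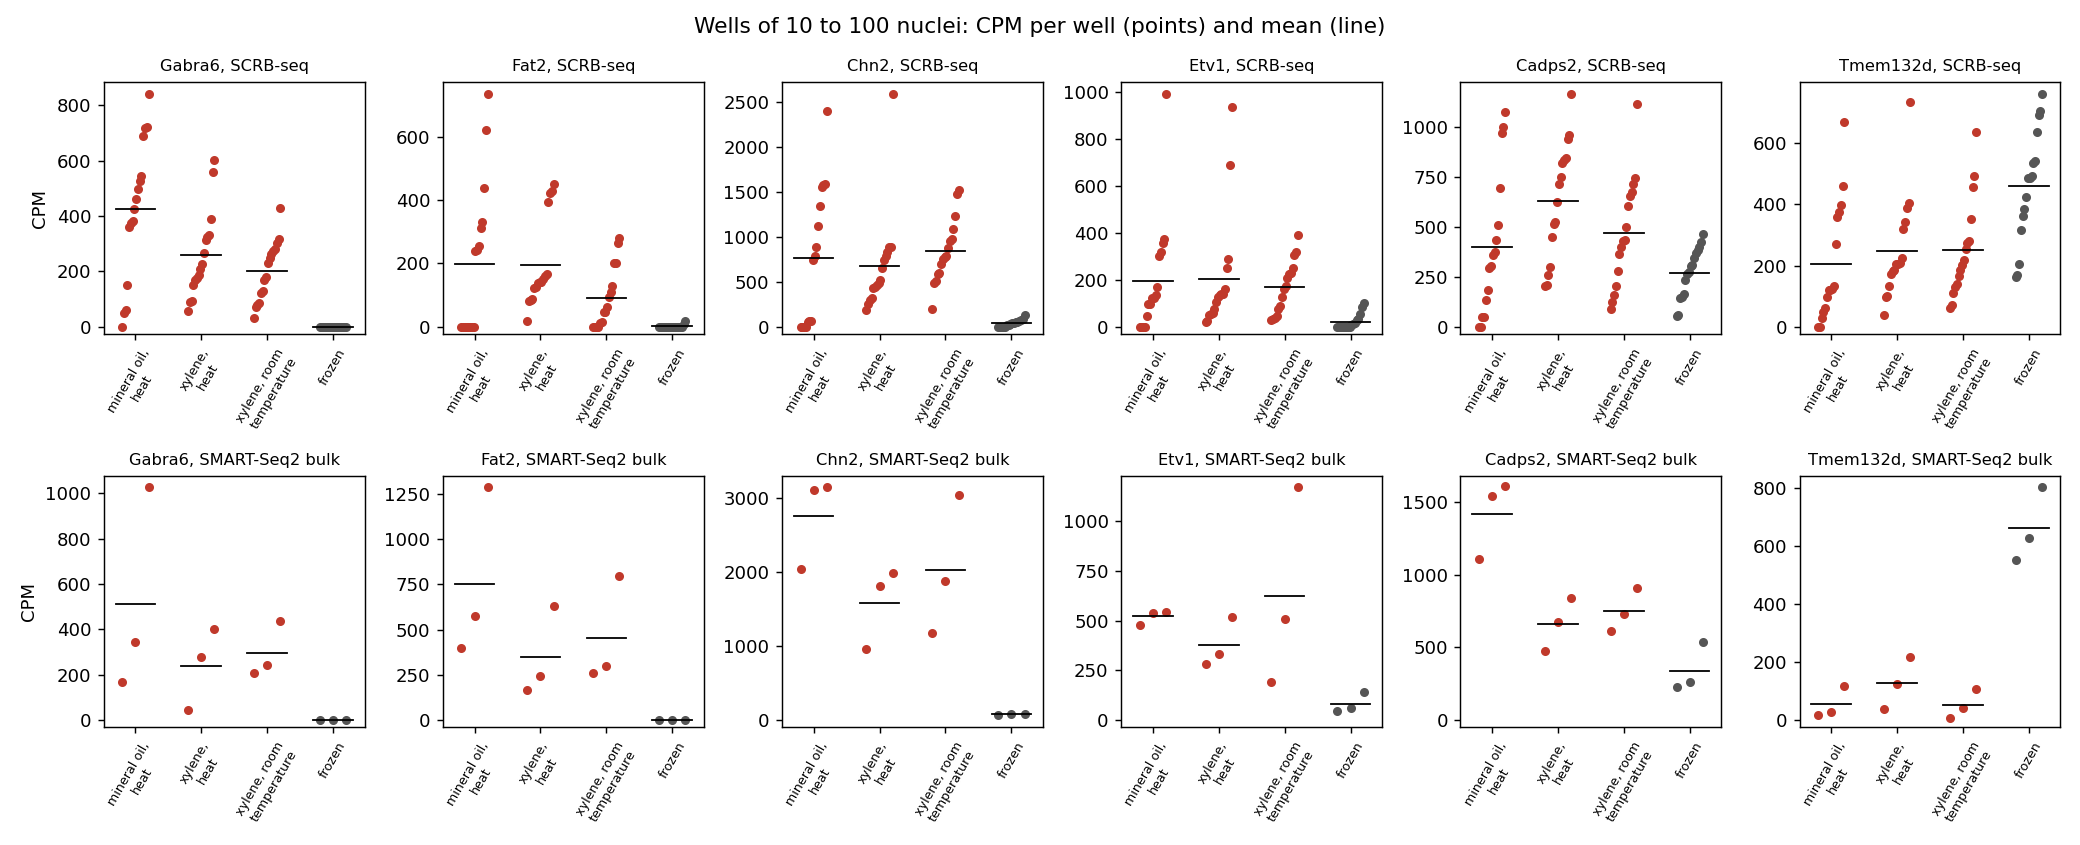
CPM of 6 genes per well after mineral oil, heated xylene and room-temperature xylene (red) and in frozen wells (grey), in SCRB-seq (top) and SMART-Seq2 (bottom); points are wells and lines means. Gabra6 is at 0 in every frozen well, and Tmem132d runs the other way, from 551 to 802 CPM in frozen SMART-Seq2 wells against at most 217 in FFPE wells.

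Of the 35 class genes (4 markers, 20 leading genes and 19 list members, with overlaps), 24 passed the count filter in SCRB-seq and 20 of these were higher in FFPE wells, where 30.2% of all 1478 genes tested were (58.0% were called in either direction). Gabrd, Rbfox3, Dgkg and Pip5k1b did not pass the threshold, and none fell. In SMART-Seq2, 34 were tested and 19 were higher, where 1.45% of 9092 genes were (4.09% in either direction), and again none fell. Many of them, Gabra6, Cbln3, Fat2 and Zic1 included, passed the filter through the FFPE wells, so these counts support nothing on all members. Of the class genes, 2 would have passed on the frozen SCRB-seq wells alone, of which Kcnd2 was higher and Rbfox3 was not, where 11.0% of 310 such genes were higher. In SMART-Seq2 there were 14, of which 6 were higher and 0 lower, where 1.11% of 4848 such genes were higher.

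Cbln3, Fat2 and Zic1 had between 0 and 7 counts over all frozen wells of an assay. Cbln3 was found in 47 of 48 FFPE and 0 of 16 frozen SCRB-seq wells (at least 106-fold higher), and in 9 of 9 and 0 of 3 SMART-Seq2 wells (at least 244-fold higher). Fat2 had 545 counts in FFPE and 2 in frozen SCRB-seq wells, a CPM ratio of 97.5 (95% 26.9 to 807, counting error only), and 2845 and 1 in SMART-Seq2, a ratio of 820 (147 to 32396). Zic1 had 786 and 7 counts in SCRB-seq, a ratio of 40.2 (19.4 to 100.3), and 778 and 0 in SMART-Seq2, at least 74.7-fold higher. Kcnd2, at 999 and 1192 CPM in frozen wells, rose by 1.46 and 2.30 on the log2 scale (edgeR adjusted p 2.88e-08 and 1.53e-06). Grm4, which reached the filter's limit in 0 of 16 and 1 of 3 frozen wells, had log2 differences of 3.07 and 3.96.

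Some class genes did not differ in this way. Rbfox3, which encodes the pan-neuronal NeuN, was at 672 ± 438 CPM in FFPE (SD, n = 48) and 647 ± 214 in frozen SCRB-seq wells (n = 16), a log2 difference of 0.02 (SE 0.26, edgeR adjusted p 0.961), which ran from -0.69 to 0.42 over the alternatives. It was at 1069 ± 263 and 872 ± 49.6 in SMART-Seq2 (log2 0.02, SE 0.31, edgeR adjusted p 0.987). Gabrd, which forebrain neurons also express, differed by 0.27 (SE 0.29) and 0.42 (SE 0.61), with edgeR adjusted p of 0.441 and 0.854; its SCRB-seq difference ran from -0.36 to 0.81 over the alternatives. In SCRB-seq wells of 100 nuclei alone, Gabrd, Dgkg and Pip5k1b passed the threshold. Over all SCRB-seq wells, 6, 4 and 3 of 16 frozen wells reached the filter's limit for them. These genes passed the filter with the help of FFPE wells, so no p-value is given for those wells. Kcnk10 was not tested in SCRB-seq and missed the threshold in SMART-Seq2 (203 against 54.8 CPM, log2 1.56, SE 0.77, edgeR adjusted p 0.356).

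The genes low in ExNeuron3 did not share 1 direction. Tmem132d fell by 1.01 in SCRB-seq (edgeR adjusted p 0.00148) and by 3.49 in SMART-Seq2 (edgeR adjusted p 0.000863). Thrb fell by 2.80 in SCRB-seq and by 2.87 in SMART-Seq2 (edgeR adjusted p 0.00501 in SMART-Seq2). In SCRB-seq 14 and 12 of 16 frozen wells reached the filter's limit for Tmem132d and Thrb, too few to pass it without FFPE wells. Thrb had a median of only 26.9 CPM in FFPE wells and 262 in frozen wells. Its pass thus leaned on the frozen wells, and no SCRB-seq p-value is given for it. In SCRB-seq wells of 10 nuclei alone the Tmem132d call was lost, with an adjusted p of 0.197. Without the frozen SMART-Seq2 well of 50 nuclei, that of Thrb was 0.0694. Cntn3 fell by 3.96 in SMART-Seq2 (edgeR adjusted p 0.00397), with a SCRB-seq difference of -0.20 (edgeR adjusted p 0.472). With DESeq2's size factors or its Wald test that difference passed the threshold, with an adjusted p down to 0.000633. Adarb2 was higher in FFPE wells, with log2 differences of 1.42 and 3.17. Only 3 of 16 and 2 of 3 frozen wells reached the filter's limit for it, so it passed the filter with the help of FFPE wells and no p-value is given. Pcdh15 went opposite ways: in SCRB-seq it rose by 1.30 (SE 0.26, edgeR adjusted p 1.16e-05), and in SMART-Seq2 its difference was -2.06 (SE 0.77, edgeR adjusted p 0.165). Of the 10 genes, 9 were tested in SCRB-seq, with 2 higher (Adarb2 and Pcdh15) and 3 lower, where 30.2% of all genes were higher and 27.7% lower. In SMART-Seq2 1 (Adarb2) was higher and 4 lower of 10, where 1.45% of all genes were higher and 2.64% lower. With Adarb2 among the higher ones in both assays, these counts do not stand for all low genes.

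Single SMART-Seq2 nuclei, which the droplet annotation also had not used, held class genes at unequal shares. Gabra6 had a count in 32 of 98 nuclei of FFPE batch 1 (32.7%, exact 95% 23.5 to 42.9), 49 of 134 of batch 2 (36.6%, 28.4 to 45.3) and 1 of 137 frozen nuclei (0.73%, 0.02 to 4.0). Cbln3 had a count in 29.6%, 43.3% and 1.5%, and Fat2 in 34.7%, 58.2% and 9.5%. The frozen nuclei were the deepest, with a median of 255329 counts, against 180584 in batch 1 and 42747 in batch 2. The FFPE batches are 1 sample each, and the frozen nuclei come from 2 plates of a table whose columns name no sample, so no test was made between the sets. On these plates Gabra6 had a count in 1 of 69 and 0 of 68 nuclei.

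The share of nuclei with a count did not separate the sets for every class gene. Chn2 was found in 66.3%, 91.8% and 53.3% of nuclei, Cadps2 in 66.3%, 76.9% and 59.9%, and Etv1 in 42.9%, 47.0% and 33.6%, in the same order. The frozen nuclei had a median of 4382 genes with a count, against 1603 and 1555, and few genes of any kind were found in more FFPE than frozen nuclei. Among 9885 genes with a count in at least 10% of the nuclei of the 3 sets, 2.33% had a larger share in batch 1 and 1.74% in batch 2 than in the frozen nuclei. Of the 34 class genes among them, 14 had a larger share in batch 1 and 24 in batch 2. Some of these, Gabra6 and Cbln3 included, reached the 10% through the FFPE nuclei (0.73% and 1.5% of frozen nuclei). These counts therefore support nothing on all members. All 4 markers occurred together in 23 nuclei of batch 1 (23.5%), 27 of batch 2 (20.1%) and 1 frozen nucleus (0.73%). Of the 10 low genes, 9 had a smaller share in batch 1 (all but Pcdh15) and 10 in batch 2, where 97.7% and 98.3% of all those genes had one. Tmem132d was found in 32.7%, 34.3% and 87.6% of nuclei.

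**Figure D5:**
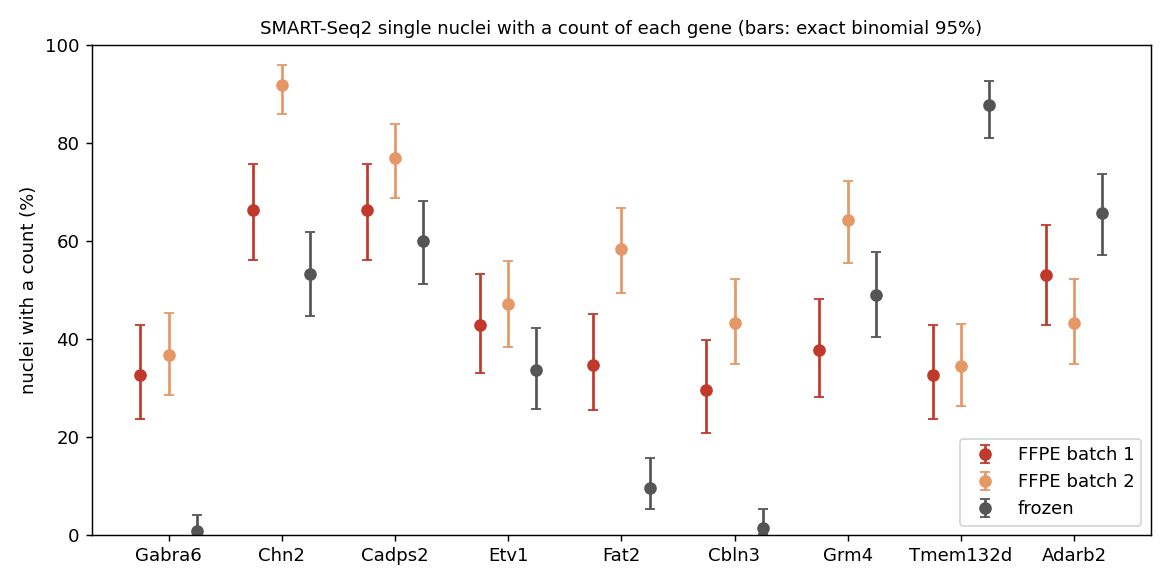
Percent of single SMART-Seq2 nuclei with a count of each gene in FFPE batch 1 (98 nuclei), FFPE batch 2 (134) and frozen nuclei (137), with exact binomial 95% intervals. Gabra6 and Cbln3 are at 0.73% and 1.5% in frozen nuclei against at least 29.6% in both FFPE batches, while Tmem132d is at 87.6% in frozen nuclei.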

How the data were processed

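Droplet nuclei, bulk wells and plate nuclei were used as the authors deposited them: raw counts per gene, UMI counts in the droplet table, with no normalization. The fraction of mitochondrial UMIs and the class of each nucleus come from the authors' deposited annotation. Per the file headers the droplet reads were counted on a reference named mm10_premrna, and per the submitters' processing notes the builds were mm10 and hg19. The programs that aligned and counted reads were not given in the sources used here. Summed UMIs equalled the authors' totals in 6900 nuclei and differed by at most 1 in 131.

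UMIs were summed per annotated class and divided by the class total (CPM). Ratios carry exact conditional binomial intervals, levels exact Poisson and shares exact Clopper-Pearson intervals at 95%, covering counting error only. Fold calls needed a 2-fold ratio and 20 UMIs over both arms. Thinning drew 250 UMIs per nucleus without replacement. Nearest neighbours used scanpy 1.11.5. Scrublet marked 4 of 7031 nuclei (0.057%), too few to count as working, and no nucleus was left out as a doublet.

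Bulk wells were tested with edgeR 4.0.16 (R 4.3.3) by its quasi-likelihood test after filterByExpr and TMM scaling (mean of the 3 FFPE methods minus frozen, Benjamini-Hochberg adjusted p under 0.05), on mouse genes only. In simulated data the test recovered 100% of changed genes in SCRB-seq (1255 genes run) and 70.1% in SMART-Seq2 (8430 genes run). The changed genes had a median absolute log2 difference of 1.94 and 2.05. Every simulated gene had the same fixed spread, not fitted to the wells, so these shares are not the power in these data. DESeq2 1.42.0 was an alternative. The counts over genes that frozen wells alone would keep, and over genes in at least 10% of plate nuclei, were added after seeing the data.

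Members, gene lists and tests were chosen with earlier results of these data known. Genes were named by rule: the 4 markers, the 15 highest ratios to the other ExNeuron classes and the 10 highest to the next class (at least 50 UMIs and 200 CPM in the class), the 10 lowest ratios (at least 200 CPM in the other ExNeuron classes), the 5 highest and 5 lowest against non-neuronal classes (at least 200 CPM in either arm), the 5 with most UMIs, and members of the gene lists. Lists for further cell types gave median ratios to the other ExNeuron classes of 0.84 (molecular layer interneuron), 1.08 (unipolar brush cell), 0.54 (striatal spiny neuron), 1.00 (Bergmann glia), 0.57 (OPC) and 0.85 (endothelial). For channel and synapse lists they were 0.63 (AMPA and kainate receptors), 1.03 (cerebellins and delta receptors), 0.96 (Rac regulators and sodium channels, each), 0.97 (calcium channels), 0.72 (vesicular transporters) and 0.74 (nuclear RNAs). Promoter windows are RefSeq's for GRCm38.p6.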

Additional observations from a re-analysis of the deposited data

How the results depend on the processing

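Only 1 droplet sample stands behind the class, at a median of 321 UMIs per nucleus, which limits every comparison of single nuclei. The genes called 2-fold higher than the other ExNeuron classes numbered 244, and 66 with at least 100 UMIs over both arms or 1306 with only 1 UMI in each arm. Those called lower numbered 757, and 164 or 1104 under the same filters. Against non-neuronal classes the higher calls went from 312 to 573 with TMM factors, 111 with 100 UMIs and 1040 with 1 UMI. The lower calls went from 751 to 541, 109 and 1925 in the same order. The share of ExNeuron3 nuclei with Gabra6 was 8.56% after thinning. Of 450 recomputed ratios of named genes, 414 stayed within their interval and 36 moved. In 5 the value crossed 1 within the interval: Mertk, at 1.18, was 0.67 after thinning, and Dlgap1, at 1.02, was at 0.98 to 1.00 under the other 4. Fewer genes or counts enter each of the stricter filters; otherwise the cause was not tested. In SCRB-seq, 857 genes were called, 4785 with no filter on low counts and 478 in wells of 10 nuclei; DESeq2's size factors moved the median log2 difference of all genes from 0.00 to -0.58 and the split of higher and lower calls from 447 and 410 to 309 and 674. In SMART-Seq2, 372 were called, 630 by DESeq2's Wald test, and 162 to 469 with 1 well left out; without the frozen well of 100, 50 or 10 nuclei they were 174, 187 and 162. Of 885 recomputed differences of single class genes in the wells, 837 kept their side of the threshold, 22 lost their call, 26 gained one and 0 called differences changed sign. Leaving out doublets was not run, since the caller did not work. The wells carry no replicate number that pairs FFPE with frozen wells, so they could be matched by their number of nuclei only. With the number of nuclei per well as a term, an alternative chosen after seeing the data, 882 genes were called in SCRB-seq and 429 in SMART-Seq2, where Tmem266 (higher in FFPE) and Pcdh15 (lower in FFPE, but higher in SCRB-seq in the fit and in each alternative) gained a call.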

Other observations

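Detection of the markers in ExNeuron3 varied with depth. From the shallowest to the deepest bin of its nuclei, Chn2 had a UMI in 26.8%, 34.5% and 45.4% of nuclei and stood at 1242, 1391 and 1567 CPM. Fat2 stood at 368, 369 and 377 CPM and Grm4 at 348, 402 and 430 CPM over the same bins. Of the 132 nuclei with Gabra6, 43.2% also had Chn2 and 25.8% Etv1, against 34.5% and 18.0% of the 973 nuclei without it.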
